A study of Homo sapiens with 6 samples.

Results

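The genes described here were the 5 subunits of the transcription factor NF-kB (NFKB1, NFKB2, RELA, RELB and REL), 3 members of the IkB family (NFKBIA, NFKBIE and NFKBIZ) and 2 further feedback regulators (TNFAIP3 and BIRC3). They were chosen by gene symbol, and 10 of 10 were found among the 17100 transcripts of the count table, each as 1 RefSeq transcript. RNA was sequenced from MDA-MB-231, an established human breast adenocarcinoma cell line without the hormone receptors and HER2 amplification. The 3 guadecitabine libraries came from cells kept for 96 h in 1 µM guadecitabine (SGI-110), a DNA methyltransferase inhibitor that releases decitabine, and then for 24 h without drug, and the 3 vehicle libraries came from cells given a vehicle that is not further described. All 6 libraries were of 1 cell line, and guadecitabine was given at 1 dose with 1 time of harvest. The time of harvest of the vehicle cells is not stated separately. The methods name 3 independent experiments. The comparison asks how the mRNA of the NF-kB system differed between the groups.

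NF-kB acts as pairs of its subunits. In resting cells most pairs are held inactive by IkB proteins, whose phosphorylation by the IKK kinases leads to their degradation and frees the pairs to enter the nucleus. Several genes switched on by NF-kB encode its own subunits and inhibitors, so that the pathway restrains itself. In the alternative arm of the pathway, the kinase NIK (MAP3K14) and IKK alpha (CHUK) trigger the processing of the NFKB2 precursor, which pairs with RELB. MDA-MB-231 is known for constitutive NF-kB activity.

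DNA motifs bound by NF-kB are known from the promoters of several of these genes. RefSeq promoter windows of 250 bases before and 50 bases after the gene start (GRCh38.p14) were available for 8 of the 10 genes, all but RELB and NFKBIE. Each of the 8 windows was found once on GRCh37, the build to which the reads were aligned, so that positions are given on GRCh37. The windows were searched on both strands for the kB consensus, a motif of 10 bases. The matches are printed because kB motifs are the sequence element through which NF-kB feeds back on its own genes. Each line is 30 bases from 5′ to 3′ on the strand of the gene, with the motif in capitals.
NFKB1, chr4:103422457-103422486, plus strand: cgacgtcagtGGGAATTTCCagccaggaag
REL, chr2:61108652-61108681, plus strand: cgtcagccgcGGGAAATTCCcctcccgcca
NFKBIA, chr14:35874017-35874046, minus strand: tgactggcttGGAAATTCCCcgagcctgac
NFKBIZ, chr3:101546601-101546630, plus strand: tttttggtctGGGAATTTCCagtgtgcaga
TNFAIP3, chr6:138188319-138188348, plus strand: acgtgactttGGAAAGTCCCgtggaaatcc
TNFAIP3, chr6:138188331-138188360, plus strand: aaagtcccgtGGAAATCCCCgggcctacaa
BIRC3, chr11:102188006-102188035, plus strand: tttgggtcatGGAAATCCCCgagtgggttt
BIRC3, chr11:102188070-102188099, plus strand: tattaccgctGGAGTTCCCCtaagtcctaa

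The matches of NFKB1, REL and NFKBIZ read on the strand of the gene and those of NFKBIA, TNFAIP3 and BIRC3 on the opposite strand. In REL a second match on the opposite strand overlapped the one shown and began 1 base further on. The matches lay at -49 to -40 bp from the gene start in NFKB1, at -81 to -72 bp in NFKBIA and at -223 to -214 bp in NFKBIZ. The pair of TNFAIP3 began at -67 and -55 bp and the pair of BIRC3 at -199 and -135 bp. No match stood in the windows of NFKB2 and RELA. The gene start of the RELA window lay 885 bp upstream of the start of the counted transcript. In the other windows it lay 0 to 79 bp downstream of that start, with 79 bp in REL and 71 bp in TNFAIP3. The matches of REL and TNFAIP3 thus lie upstream of the gene start of the window but downstream of the start of the counted transcript. Of 35116 promoter windows of the same length, 11.3% held at least 1 match and 2.04% at least 2. A match is a description of the letters and not evidence of binding. The number of CpG sites in the window ranged from 7 in RELA to 41 in REL, with 35 each in NFKB1 and TNFAIP3, 22 in NFKBIA, 20 in NFKB2 and 15 each in NFKBIZ and BIRC3. The median of all windows was 14 (quartiles 4 and 28). Methylation was not measured in these files.

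**Figure D1:**
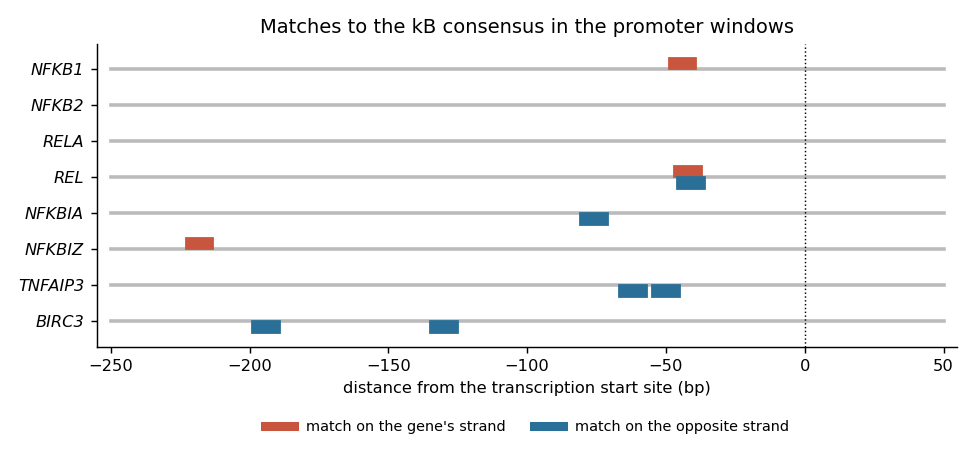
Positions of the matches to the kB consensus (boxes) in the promoter windows of 8 genes, in bp from the gene start, with matches on the strand of the gene above the line and on the opposite strand below it. The matches of NFKB1, REL, NFKBIA and TNFAIP3 lie within 81 bp upstream of the gene start of the window. Those of REL and TNFAIP3 lie downstream of the start of the counted transcript. The matches of NFKBIZ and BIRC3 lie farther upstream, and NFKB2 and RELA have none.

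The libraries held between 8792127 counts (guadecitabine replicate 2) and 22277442 counts (vehicle replicate 3). Vehicle replicate 3 had 20 transcripts at 0 counts against 1593 to 2517 in the other libraries, and carried a median of 7.10 counts per kb over 533 genes with at most 1 count in each other vehicle library and at least 11 counts over the guadecitabine libraries. Of the markers of the line, VIM had 32223 to 82480 counts, CD44 13085 to 41739 and EGFR 910 to 2378, ERBB2 had 552 to 1974, and ESR1 and PGR had at most 1 count in 5 libraries but 67 and 43 in vehicle replicate 3. Of 8 leukocyte markers found in the table, CD2 and MS4A1 were at 0 in 5 libraries and at 13 and 24 counts in vehicle replicate 3, and the summed level of the 8 was 21.1 to 31.6 CPM in vehicle and 15.9 to 16.9 CPM after guadecitabine, most of it from CSF1R and CD14. AXL was at 1222 to 1394 CPM in vehicle and 529 to 598 CPM after guadecitabine and CAV1 at 1045 to 1081 CPM and 408 to 576 CPM, while CD44 was at 743 to 927 CPM and 1914 to 2005 CPM and VIM at 2987 to 3328 CPM and 3665 to 4444 CPM. The sum of the 5 markers present in the line, in which these opposite differences offset each other, was 6167 to 6652 CPM and 6780 to 7470 CPM. That of the 5 markers listed as low or absent was 115 to 118 CPM and 68.3 to 73.7 CPM. Most of it came from ERBB2, at 88.6 to 96.7 CPM and 54.7 to 62.8 CPM, which in vehicle was near EGFR (70.2 to 99.9 CPM). The part of these differences in the results was not tested.

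Of the 10 genes, 9 were higher and 0 lower after guadecitabine, with log2 fold changes from 0.36 in RELA to 2.87 in TNFAIP3 and a median of 1.59 over the 10. The feedback regulators TNFAIP3 and BIRC3 rose the most, followed by the IkB genes and the alternative subunits NFKB2 and RELB, while NFKB1 and RELA rose less and REL did not pass the test. Calls were made at an adjusted p of 0.05 in edgeR's quasi-likelihood test over 13322 genes, of which 19.3% were called higher and 18.4% lower, with a median log2 fold change of 0.02. The 10 genes were chosen with earlier results of these data known, so the contrast with all genes is a description only. In 9 of the 10 genes every guadecitabine library lay above every vehicle library, which held for 26.6% of all genes tested. For a single gene, 3 against 3 libraries cannot give a two-sided exact permutation p under 0.1, and that was the value in each of these 9 genes. These are bulk libraries, in which a change in the share of cells expressing a gene and a change in RNA per cell cannot be told apart. The number of the 10 genes called higher was 7 to 10 over the alternatives tried.

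**Figure D2:**
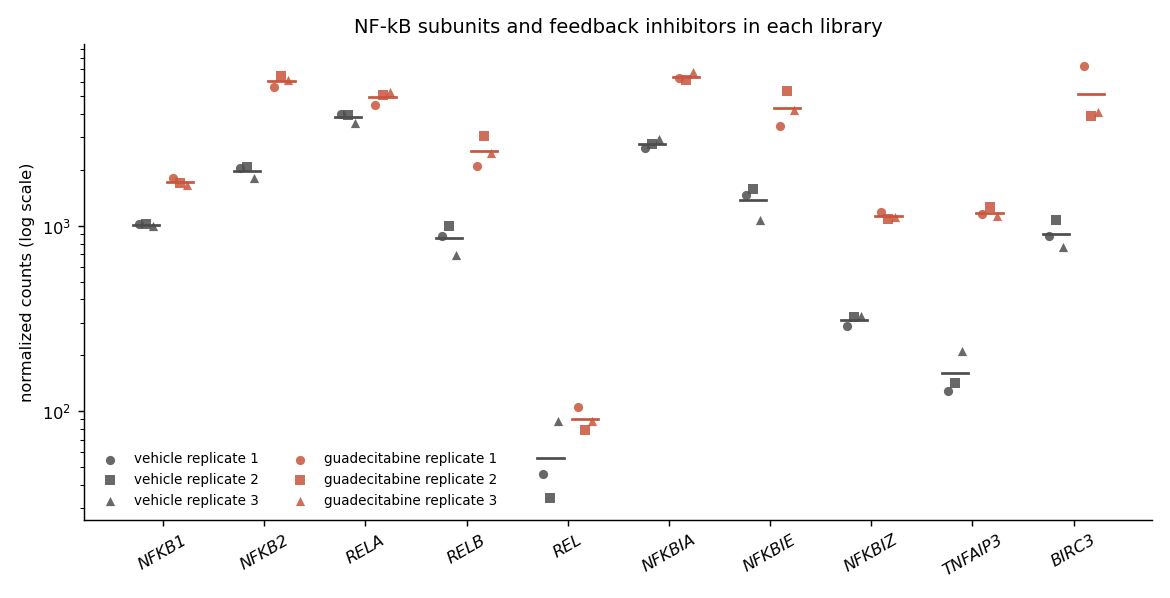
Normalized counts (log axis) of the 10 genes in each of the 6 libraries, with a line at the mean of each group. The guadecitabine libraries lie above the vehicle libraries in every gene but REL, and BIRC3 in guadecitabine replicate 1 lies above the other guadecitabine libraries.

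RELA encodes the subunit that carries the main activating domain of canonical NF-kB. The counted transcript lies on the minus strand of chromosome 11 from 65421067 to 65430443. In vehicle replicates 1, 2 and 3 RELA was at 4001, 3971 and 3601 normalized counts, and in guadecitabine replicates 1, 2 and 3 at 4502, 5066 and 5297. The groups did not overlap, with vehicle replicate 3 the lowest and guadecitabine replicate 3 the highest. The means were 3858 ± 223 and 4955 ± 409 (SD, n = 3), a 1.28-fold difference (log2 fold change 0.36, standard error 0.104, adjusted p = 0.0237 from edgeR). This was the smallest change of the 10 genes, and its call was lost in several alternatives. Blocking on the replicate number gave an adjusted p of 0.0524 (edgeR), and keeping all rows of the table gave 0.0523 (edgeR). It was 0.0637 without vehicle replicate 1, 0.0676 without vehicle replicate 2 and 0.0530 without vehicle replicate 3 (edgeR). Without guadecitabine replicate 2 it was 0.0543 and without guadecitabine replicate 3 it was 0.125 (edgeR), and the log2 fold change stayed between 0.31 and 0.43 over the libraries left out.

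NFKB1 encodes a precursor that is cut to the DNA-binding partner of RELA. Its transcript lies on the plus strand of chromosome 4 from 103422486 to 103538459. NFKB1 was at 1016, 1024 and 1000.1 normalized counts in vehicle replicates 1, 2 and 3 and at 1811, 1701 and 1656 in guadecitabine replicates 1, 2 and 3. The vehicle libraries differed from their mean by less than in any other of these genes, with a coefficient of variation of 1.21%. NFKB1 rose 1.70-fold, from 1014 ± 12.3 to 1723 ± 79.9 normalized counts (SD, n = 3, log2 fold change 0.77, standard error 0.0962, adjusted p = 0.000326 from edgeR).

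NFKB2 encodes the precursor of the alternative pathway. The locus is on the plus strand of chromosome 10 from 104153867 to 104162286. It was at 2061, 2073 and 1811 normalized counts in vehicle replicates 1, 2 and 3 and at 5583, 6433 and 6144 in guadecitabine replicates 1, 2 and 3. Each guadecitabine library was thus well above the vehicle range, and the rise was 3.05-fold, from 1982 ± 148 to 6053 ± 433 (SD, n = 3, log2 fold change 1.61, standard error 0.108, adjusted p = 8.59e-06 from edgeR).

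RELB encodes the preferred partner of processed NFKB2 and lies on the plus strand of chromosome 19 from 45504707 to 45541456. Vehicle replicates 1, 2 and 3 were at 886, 998 and 694 normalized counts and guadecitabine replicates 1, 2 and 3 at 2097, 3057 and 2470. RELB rose 2.96-fold (log2 fold change 1.56, standard error 0.176, adjusted p = 0.000167 from edgeR), and the lowest guadecitabine library still lay above the highest vehicle library.

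REL encodes c-Rel, a subunit best known from lymphocytes. It lies on the plus strand of chromosome 2 from 61108630 to 61155291, and 28.8% of its exon bases are shared in GENCODE with a long non-coding gene on the same strand. REL was at 48, 32 and 114 raw counts in vehicle replicates 1, 2 and 3 and at 129, 39 and 87 in guadecitabine replicates 1, 2 and 3. After normalization vehicle replicate 3, with 88.0, lay inside the guadecitabine range of 79.4 to 104, while vehicle replicates 1 and 2, with 45.7 and 33.8, lay below it. The log2 fold change of 0.69 (standard error 0.359) did not pass the test (adjusted p = 0.161 from edgeR). The background of vehicle replicate 3, scaled to the length of the REL transcript, amounted to 54.9 counts or 48.2% of the REL counts in that library. Without vehicle replicate 3 the log2 fold change was 1.20 (adjusted p = 0.00302 from edgeR), and with that background subtracted it was 1.09 (adjusted p = 0.00574 from edgeR). In the other genes the same background was 0.294% to 12.3% of the counts of vehicle replicate 3, with the highest share in TNFAIP3.

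NFKBIA encodes IkB alpha, the inhibitor that is degraded and rebuilt within the fast feedback of the pathway. The gene is on the minus strand of chromosome 14 from 35870716 to 35873960. Its level was 2613, 2773 and 2924 normalized counts in vehicle replicates 1, 2 and 3 and 6284, 6091 and 6729 in guadecitabine replicates 1, 2 and 3. The libraries of each group lay close together, with coefficients of variation of 5.61% and 5.13%. NFKBIA rose 2.30-fold (log2 fold change 1.20, standard error 0.0985, adjusted p = 2.76e-05 from edgeR).

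NFKBIE encodes IkB epsilon, a further cytoplasmic inhibitor, and lies on the minus strand of chromosome 6 from 44225903 to 44233525. It was at 1465, 1571 and 1077 normalized counts in vehicle replicates 1, 2 and 3 and at 3472, 5353 and 4217 in guadecitabine replicates 1, 2 and 3. The spread within groups was wider than for NFKBIA, but the groups did not overlap, and NFKBIE rose 3.17-fold (log2 fold change 1.66, standard error 0.189, adjusted p = 0.000180 from edgeR).

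NFKBIZ encodes IkB zeta, which stays in the nucleus and works there as a cofactor of NF-kB at a subset of targets. It lies on the plus strand of chromosome 3 from 101546834 to 101579869, where 5.07% of its exon bases are shared with NXPE3 on the same strand. NFKBIZ was at 287, 322 and 324 normalized counts in vehicle replicates 1, 2 and 3 and at 1184, 1083 and 1117 in guadecitabine replicates 1, 2 and 3. The groups did not overlap, and the coefficients of variation were 6.80% and 4.56%. NFKBIZ rose 3.63-fold (log2 fold change 1.86, standard error 0.107, adjusted p = 3.09e-06 from edgeR).

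TNFAIP3 encodes A20, a ubiquitin-editing enzyme that shuts off signalling from TNF and Toll-like receptors to IKK. Its locus is on the plus strand of chromosome 6 from 138188325 to 138204451. TNFAIP3 was at 129, 142 and 211 normalized counts in vehicle replicates 1, 2 and 3 and at 1155, 1256 and 1123 in guadecitabine replicates 1, 2 and 3. The highest vehicle library was replicate 3. From 160 ± 44.2 to 1178 ± 69.4 normalized counts (SD, n = 3), TNFAIP3 rose 7.29-fold (log2 fold change 2.87, standard error 0.181, adjusted p = 5.73e-06 from edgeR), which ranked 298th of the 13322 genes by log2 fold change.

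BIRC3 encodes cIAP2, a ubiquitin ligase of the TNF receptor complex that also takes part in the turnover of NIK. It lies on the plus strand of chromosome 11 from 102188181 to 102210135, and 1.83% of its exon bases are shared with a long non-coding gene on the opposite strand. In vehicle replicates 1, 2 and 3 it was at 881, 1068 and 766 normalized counts, and in guadecitabine replicates 1, 2 and 3 at 7322, 3934 and 4128. Guadecitabine replicate 1 stood apart from the other two, and the coefficient of variation of that group was 37.1%, the widest after guadecitabine of the 10 genes. BIRC3 rose 5.68-fold (log2 fold change 2.51, standard error 0.248, adjusted p = 7.92e-05 from edgeR), and by 2.16 on the log2 scale when guadecitabine replicate 1 was left out.

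**Figure D3:**
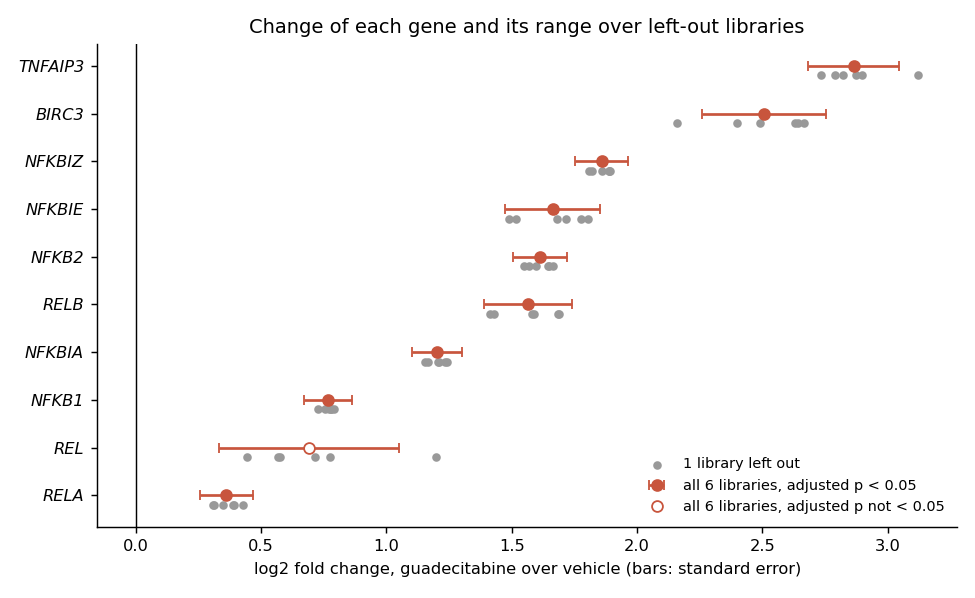
Log2 fold changes of the 10 genes with their standard errors (red) and the values with each library left out in turn (grey), with REL drawn open because its adjusted p was 0.161. The values run from 0.36 in RELA to 2.87 in TNFAIP3, and the widest ranges over left-out libraries are those of REL (0.44 to 1.20) and BIRC3 (2.16 to 2.67).

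Library deviations were partly shared between the genes. In guadecitabine replicate 1 BIRC3 lay 0.51 above the log2 of its group mean, whereas NFKBIE and RELB were at -0.32 and -0.28. In guadecitabine replicate 2 BIRC3 was at -0.38 and NFKBIE and RELB were at 0.30 and 0.27. The vehicle libraries did not show this contrast. BIRC3, NFKBIE and RELB were at 0.24, 0.20 and 0.22 in vehicle replicate 2 and at -0.24, -0.35 and -0.31 in vehicle replicate 3. In vehicle replicate 1 they were at -0.04, 0.10 and 0.04. The exons of BIRC3 had the lowest GC content of the 10 genes (35.8%) and those of RELB, NFKB2 and NFKBIE the highest (64.9%, 62.4% and 61.0%). The part of base composition in these deviations was not tested.

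Levels of different genes were compared per kb of counted exon. In vehicle the highest levels were NFKBIA with 1768 ± 99.1 and RELA with 1627 ± 94.1 reads per kb (SD, n = 3), whose ranges overlapped. NFKB2 with 580 ± 43.3 and NFKBIE with 531 ± 101 followed and overlapped too, as did NFKBIE and RELB (378 ± 67.7). Below them came NFKB1 (248 ± 3.01), BIRC3 (131 ± 22.0), NFKBIZ (86.4 ± 5.87), TNFAIP3 (34.0 ± 9.39) and REL (7.22 ± 3.69), each with a range apart from its neighbours. After guadecitabine NFKBIA stood alone at the top with 4064 ± 209 reads per kb, above RELA with 2090 ± 172. NFKB2 (1772 ± 127) and NFKBIE (1684 ± 367) again overlapped, and BIRC3 (742 ± 275), whose range reached into that of RELB (1117 ± 213), had passed NFKB1 (422 ± 19.6). NFKBIZ, TNFAIP3 and REL kept the last places, with 313 ± 14.3, 250 ± 14.7 and 11.7 ± 1.65 reads per kb (SD, n = 3). Among all genes tested, the percentile of TNFAIP3 in reads per kb was 23.8 in vehicle and 61.2 after guadecitabine, and that of RELA was 91.8 and 93.7.

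In the mix of subunit mRNA, the share of RELA was lower and the shares of NFKB2 and RELB were higher in each guadecitabine library than in any vehicle library. RELA made up 57.5%, 56.3% and 58.2% of the summed subunit reads per kb in vehicle replicates 1, 2 and 3 and 38.7%, 36.9% and 40.4% in guadecitabine replicates 1, 2 and 3. NFKB2 made up 20.3% to 20.6% in vehicle and 32.5% to 33.3% after guadecitabine, and RELB 11.7% to 14.7% and 18.8% to 23.2%. The share of NFKB1 was 8.77% ± 0.538 and 7.85% ± 1.02 (SD, n = 3), with overlapping groups, and REL was at 0.147% to 0.436% over the 6 libraries. These shares and the ratios below are taken within a library and so do not depend on the scaling between libraries.

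**Figure D4:**
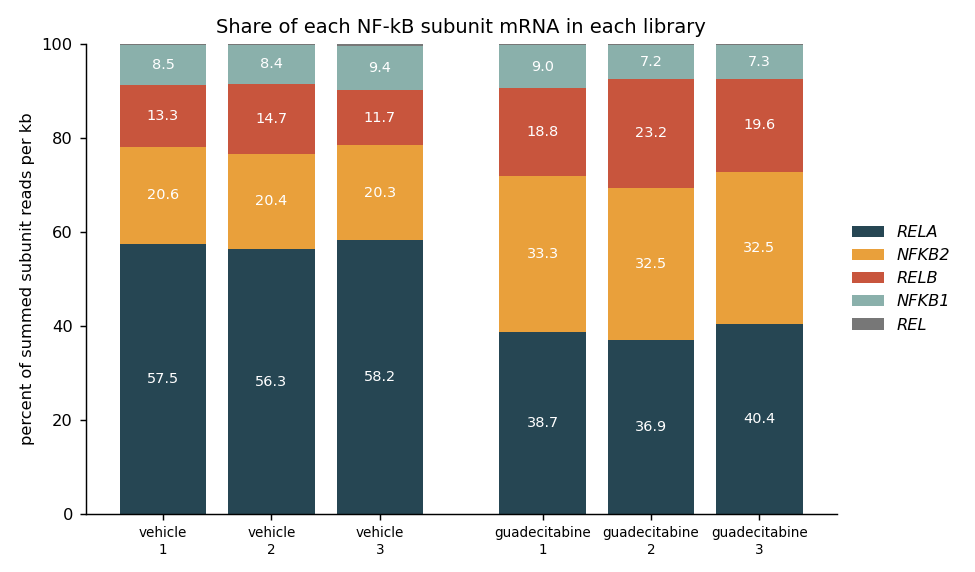
Share of each subunit in the summed reads per kb of the 5 subunits, in percent, for each of the 6 libraries. RELA takes 56.3% to 58.2% in vehicle and 36.9% to 40.4% after guadecitabine, and the shares of NFKB2 and RELB are larger in each guadecitabine library.

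Set against RELA in the same library, NFKB2 was 2.38 times and RELB 2.30 times its vehicle ratio after guadecitabine, on the geometric mean. The log2 ratio of RELB to NFKB2 was -0.63 ± 0.165 in vehicle and -0.68 ± 0.174 after guadecitabine (SD, n = 3), a difference of -0.05 that was smaller than the spread between replicates. Relative to RELA, NFKBIA was at 1.79 times, NFKBIE at 2.46 times, NFKBIZ at 2.83 times, BIRC3 at 4.28 times and TNFAIP3 at 5.86 times the vehicle ratio. The summed reads per kb of the 3 IkB genes were 0.789 to 0.909 times those of the 5 subunits in vehicle and 1.08 to 1.16 times after guadecitabine, without overlap. Among 20 such shares, ratios and sums, the guadecitabine libraries all lay above the vehicle libraries in 14 and below them in 1. The groups overlapped in 5. Each measure without overlap had the smallest exact permutation p of 0.1 (0.133 with Benjamini-Hochberg adjustment over the 20). The 20 measures recombine the same genes and are not separate results, which the adjustment does not change. A gene that rose more than RELA, the gene with the smallest change, also rises in its ratio to RELA. The shares of the subunits likewise depend on each other. The tally thus largely restates the changes of the single genes and is a description only.

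Other genes of the pathway were read from a list of 54 regulators and a list of 41 known NF-kB targets. Both lists were chosen with earlier results of these data known, so their counts describe the listed genes and do not test the pathway. Of the regulators, 25 were higher and 3 lower (adjusted p of 0.05 in edgeR), against 19.3% and 18.4% of all genes tested, with a median log2 fold change of 0.34, and the groups were apart with guadecitabine above in 29 and below in 6, against 26.6% and 25.0% of all genes tested. The partners of A20 had 4 of 5 genes higher, and the IKK and upstream kinases 5 of 11 higher and 2 lower. The largest rises were those of TNIP3, an A20-binding protein (3.11), TNFRSF1B, the second TNF receptor (2.40), and TRAF1, an adaptor of TNF receptors that is itself an NF-kB target (2.17). TNIP3 rested on 3, 8 and 21 raw counts in vehicle replicates 1, 2 and 3 against 138, 32 and 66 in guadecitabine replicates 1, 2 and 3. The background of vehicle replicate 3 came to 17.4 of its 21 counts there, and the log2 fold change of TNIP3 was 3.88 without that library, 4.08 with the background subtracted and 2.70 to 4.08 over the alternatives. TAB1, an activator of the kinase TAK1, fell by 1.04 on the log2 scale (adjusted p = 0.000306, edgeR). The number of lower regulators was 1 without vehicle replicate 1, vehicle replicate 2 or guadecitabine replicate 3.

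Values of 4 kinase genes chosen by name follow, with those of IKBKE, MAP3K8 and MAP3K7, which were added after their values were seen. IKBKE, the IKK epsilon kinase, rose by 0.90 (adjusted p = 0.000216, edgeR) and MAP3K8, the kinase TPL2 that is held by the NFKB1 precursor, by 0.86 (adjusted p = 0.0157, edgeR) on the log2 scale. These were the largest rises of the 11 IKK and upstream kinases on the list. Besides TAB1 and IKBKB, MAP3K7 was lower, by 0.33 on the log2 scale without overlap between groups, but did not pass (adjusted p = 0.0821, edgeR). CHUK rose by 0.56 (adjusted p = 0.0126 from edgeR) and MAP3K14 by 0.44 (adjusted p = 0.0109 from edgeR) on the log2 scale. CHUK lost the call in 1 of 14 alternatives, the test against a 1.5-fold change. MAP3K14 lost it in 2 of 14, that test and the fit without guadecitabine replicate 3. IKBKB, the IKK beta kinase, fell by 0.31 on the log2 scale (adjusted p = 0.0450 from edgeR), and it lost the call in 10 of 14 alternatives, among them each of the 6 left-out libraries. IKBKG, the scaffold NEMO, differed by 0.11 on the log2 scale, which did not pass (adjusted p = 0.640, edgeR). TNFRSF1A, the main TNF receptor of most cells, fell by 0.34 on the log2 scale (adjusted p = 0.0265 from edgeR) and lost the call in 7 of 14 alternatives, including the replicate block and the fits without vehicle replicate 1, vehicle replicate 2, guadecitabine replicate 1 or guadecitabine replicate 3.

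Of the 41 targets, 30 were higher and 3 lower, against 19.3% and 18.4% of all genes tested, with a median log2 fold change of 2.46. As the list was chosen with earlier results known, this difference from all genes tested does not extend to NF-kB targets at large. The groups were apart with guadecitabine above in 34 and below in 3, against 26.6% and 25.0% of all genes tested. Cytokines and chemokines accounted for 18 of the 30, out of 20 on the list. CCL20 had 3, 1 and 3 raw counts in vehicle replicates 1, 2 and 3 and 2071, 1132 and 1698 in guadecitabine replicates 1, 2 and 3. The background of vehicle replicate 3, scaled to its length, was 5.96 counts, more than the 3 counted. That background is thus a rough estimate for a single gene. CSF3, the granulocyte growth factor, and CXCL5, an attractant of neutrophils, had the next largest rises among the genes named by rule, with log2 fold changes of 9.14 and 8.84. In CSF3 the background came to 10.5 of the 38 counts of vehicle replicate 3. CXCL5 rested on 3, 0 and 20 raw counts in vehicle replicates 1, 2 and 3. The background of vehicle replicate 3 came to 17.7 of the 20 counts there, and the log2 fold change of CXCL5 was 10.94 without that library, 10.90 with the background subtracted and 8.36 to 10.94 over the alternatives. The 3 lower targets were BCL2L1, which encodes the survival protein BCL-XL, the growth factor CSF1 and the stress gene GADD45B, which fell by 0.80, 0.57 and 0.53 on the log2 scale. The transcription factor targets had 2 of 5 genes higher, with a median log2 fold change of 0.12.

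**Figure D5:**
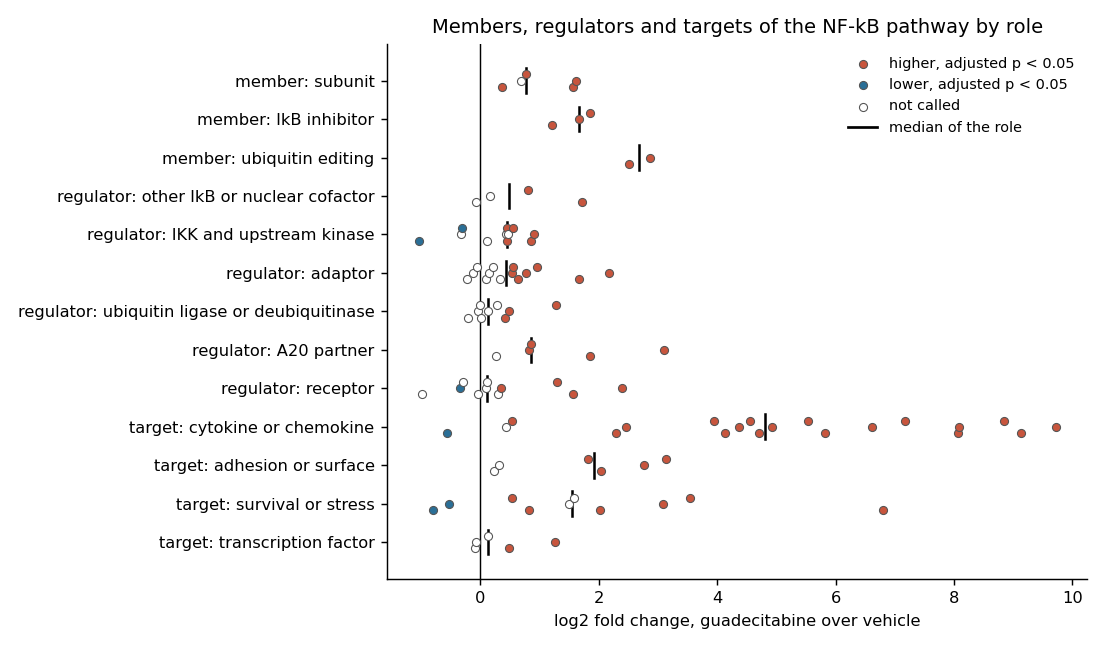
Log2 fold changes of the 10 genes, the 54 regulators and the 41 targets by role, filled red where higher and blue where lower at an adjusted p of 0.05, open where not called, with a line at the median of each role. The A20 partners, with 4 of 5 higher, and the cytokine targets, with 18 of 20 higher, lie farthest to the right of their lists.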

How the data were processed

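RNA sequencing counts of 3 vehicle and 3 guadecitabine libraries were used, grouped by their titles. The authors prepared libraries with a TruSeq RNA kit, aligned them with STAR (2.3.1z in the submitters' processing notes) to hg19, which is GRCh37, and counted tags in exons with iRNA-seq. The authors deposited raw counts per RefSeq transcript and the counted exon length, both used here. They also deposited regularized log2 values and the columns of their own DESeq2 comparison. Those deposited columns include a mean normalized signal, a log2 fold change, a test score and a p-value, and none was used. Whether counting used strand is not given in the sources used here.

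The raw counts went through edgeR 4.0.16 (R 4.3.3): filterByExpr at a minimum count of 10, TMM factors, and the quasi-likelihood test, adjusted by Benjamini-Hochberg over 13322 genes. All 10 genes passed the filter. The fit was tested on simulated data. Normalized counts are TMM-scaled counts at a common library total of 17911210, and reads per kb are these per kb of counted exon. Library totals of 8792127 to 22277442 set the precision, and intervals or floors would cover counting error only. Alternatives were a replicate block, DESeq2 1.42.0, its size factors, library totals only, no filter, at least 10 counts in every library, a test against a 1.5-fold change, a background subtracted from vehicle replicate 3, and each library left out. Exact permutation tests (SciPy 1.17.1) were two-sided. Exon overlaps and GC content came from GENCODE on GRCh37 and promoter windows from RefSeq.

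The 10 genes and both lists were chosen with earlier results of these data known. Named list genes were the 3 largest rises and the 3 largest falls per list among called genes without overlap between groups, and 4 kinases chosen by name. Outside this rule, IKBKE, MAP3K8 and MAP3K7 were added after their values were seen. Methylation and protein were not analysed here.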

Additional observations from a re-analysis of the deposited data

How the results depend on the processing

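Over 14 alternatives, 129 of 140 log2 fold changes of the 10 genes kept their direction and their side of the threshold, none reversed, 9 lost the call and 2 gained it. The gains were those of REL, at 1.09 with the background subtracted from vehicle replicate 3 and at 1.20 without that library, against 0.44 as its lowest value with a library left out. RELA lost the call with the replicate block (0.36), without a filter (0.38), in the test against a 1.5-fold change (0.36) and with 5 of 6 libraries left out (0.31 to 0.39), but not without guadecitabine replicate 1 (0.43), and NFKB1 lost it in the test against a 1.5-fold change (0.77). That test also gave 818 genes higher and 696 lower in all, against 2576 and 2446, 11 regulators higher and 1 lower, and 0 targets lower. With libraries left out, all genes higher ranged from 1706 to 3002 and lower from 1629 to 2575, both lowest without guadecitabine replicate 3, and lower regulators from 1 to 3. Without a filter 1 regulator was lower, and the median log2 fold change of all genes was -0.11, against 0.02 with the filter. The number of the 10 genes called higher was 8 with the replicate block. Same-numbered libraries did not deviate together over all genes (correlations of -0.0499, 0.0492 and -0.0366), which does not settle the pairing for single genes. The numbers were not treated as pairs because the methods name no pairing, and the block changed no call of the 10 genes but that of RELA. Library totals only gave a median of 0.05. The cause of these changes was not tested. A floor of 3 counts in a library was set beforehand for counting error only and was not derived from these data. The vehicle counts of CCL20 (3, 1 and 3) lie at or under it. So do those of CXCL5 in vehicle replicates 1 and 2 (3 and 0) and of TNIP3 in vehicle replicate 1 (3).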
